A study of Mus musculus with 6 samples.

Results

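The cytosolic ribosomal protein genes and their paralogues were taken by gene symbol: the Rpl and Rps names with their letter and number endings, together with Rplp0, Rplp1, Rplp2 and Rpsa, and without the Rps6k kinases and pseudogene names. This gave 84 of the 22027 genes in the deposited table, namely 46 genes of the large (60S) subunit, 31 of the small (40S) subunit and 7 paralogues (Rpl3l, Rpl7l1, Rpl10l, Rpl22l1, Rpl36al, Rpl39l and Rps27l). The study asked how TET3, a dioxygenase that turns methylated cytosine into hydroxymethylcytosine, affects gene expression in macrophages. It sequenced mRNA of RAW 264.7 cells, an established mouse macrophage line of wild-type genotype, 48 h after lipofection with 10 pmol of siRNA per well. The 3 siCTL libraries received a non-targeting siRNA and the 3 siTET3 libraries received 1 siRNA against Tet3. Because the treatment field reads siTET3 for every one of the 6 samples, groups were assigned by sample title. The labels do not state separate cultures for the replicates, and a p-value here covers only library-to-library spread, which may be technical.

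Each ribosome carries 1 copy of most of its proteins, and in growing cells their mRNAs are among the most abundant. Most of these mRNAs begin with a 5′ terminal oligopyrimidine (TOP) tract, a run of C and T at the start site through which mTORC1 and the RNA-binding protein LARP1 control their translation. Paralogues are related copies that can replace a core protein or are made in particular tissues, such as Rpl3l in striated muscle and Rpl10l and Rpl39l in the testis.

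A run of C and T lies at or near the listed start site of several members. Of the 84 members, 64 had an entry in the RefSeq promoter table (GRCm38.p6), and 30 bases around the listed start (10 before it and 20 from it) are given here for members on which the results below turn, with the longest uninterrupted run of C and T in capitals.
Rplp2 (chr7:141447641-141447670, plus strand): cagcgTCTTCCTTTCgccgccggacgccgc
Rpl28 (chr7:4792955-4792984, plus strand): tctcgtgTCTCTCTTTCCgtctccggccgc
Rps10 (chr17:27635225-27635254, minus strand): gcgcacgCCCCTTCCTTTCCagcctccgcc
Rps27 (chr3:90213629-90213658, minus strand): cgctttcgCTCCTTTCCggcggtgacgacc
Rpl22l1 (chr3:28805498-28805527, plus strand): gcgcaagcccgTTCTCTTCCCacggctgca
Rps16 (chr7:28350679-28350708, plus strand): TTCTgtcgtgacgtagcactcaatgcgcct
A run of at least 8 C or T lay within these 30 bases in 32.8% of the 64 members and in 11.2% of all 27025 promoters of the table. It was found in 11 of 34 large-subunit genes, 9 of 23 small-subunit genes and 1 of 7 paralogues. The run did not have to cover the start base, and in Rpl22l1 it begins 1 base after it. The listed start base was C in 32.8% of the 64 members and in 16.2% of all promoters. The Rps16 window holds no run longer than 4. For any of these genes the listed start may not be the start used in these cells. It lay 37 bases from the gene's start in GENCODE M21 for Rps16, 281 for Rplp2 and 1425 for Rps10. The motif CCGGAAG, searched on both strands of the 300-base promoters, was present in 39.1% of the members and in 9.12% of all promoters. TATAAA, searched the same way, was present in 9.38% of the members and 14.2% of all promoters. The median log2 change between the groups was -0.27 over the 21 tested members with a run of at least 8 and -0.22 over the 41 without one, and -0.19 and -0.18 without siCTL replicate 2.

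The libraries held between 29587171 and 61709131 reads on genes. Tet3, the targeted gene, had 2171, 1911 and 2027 normalised reads in siCTL replicates 1, 2 and 3. It had 1939, 1980 and 1950 in the libraries labelled siTET3, so the groups overlapped through siCTL replicate 2. All libraries labelled siTET3 lay below siCTL replicates 1 and 3, as they did for 20.6% of all genes. Tet3 was not detectably lower (log2 change -0.06, 95% interval from -0.26 to 0.15, limma adjusted p = 0.699). The libraries are therefore called by their labels. All 14 table rows for 13 macrophage markers were detected, and 8 of 14 markers of other cell types were at 0 in every library. The summed level of those 14 markers was 15.2 to 409 units in siCTL and 8.91 to 27.5 in the libraries labelled siTET3, with the 409 in siCTL replicate 2, where Pdgfra and Col1a2 reached 109 and 286 units. The part of such cells in the results below was not tested. siCTL replicate 2 also stood apart by base content. Relative to each gene's median, its log2 values rose by 0.58 for each 10 points of transcript G + C content. In siCTL replicates 1 and 3 the slopes were 0.020 and 0.14, whereas the libraries labelled siTET3 had -0.077, -0.075 and -0.13, so they separated the groups also without siCTL replicate 2. Across 11529 genes with an annotated transcript, the log2 change without siCTL replicate 2 had a Spearman coefficient of -0.49 with G + C content. Results are therefore also given without siCTL replicate 2 and, for the main ones, with the trend with base content removed. The part of base content in the differences between the groups was not tested beyond these values.

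Messenger RNAs of the ribosomal proteins made up a smaller share of the reads in every library labelled siTET3 than in every siCTL library. The 84 members took 7.41%, 8.33% and 7.41% of the reads in siCTL replicates 1, 2 and 3, and 6.61%, 6.70% and 6.49% in the libraries labelled siTET3. The groups did not overlap, and the largest counting error of a share (Wilson 95% interval) was 0.00926 percentage points on either side. These are shares of reads in bulk samples. Fewer cells making these mRNAs, less of them per cell and more of other mRNAs therefore cannot be told apart. The large subunit accounted for 4.32%, 5.03% and 4.29% in siCTL and 3.85%, 3.88% and 3.77% in the libraries labelled siTET3. The small subunit accounted for 3.04%, 3.26% and 3.07% in siCTL and 2.70%, 2.77% and 2.66% in the libraries labelled siTET3. Both subunits thus differed the same way, without overlap. The ratio of large-subunit to small-subunit units was 1.42, 1.54 and 1.40 in siCTL and 1.43, 1.40 and 1.41 in the libraries labelled siTET3, so siCTL replicate 2 was the highest and the other 5 libraries lay between 1.40 and 1.43. The paralogues took only 0.0459% to 0.0574% of the reads.

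**Figure D1:**
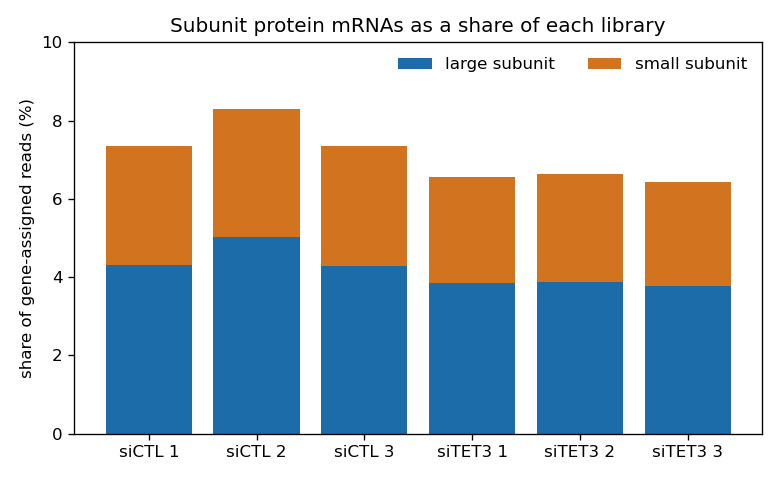
Share of gene-assigned reads (%) on the 46 large-subunit (blue) and 31 small-subunit (orange) genes, stacked, in each of the 6 libraries. The siCTL bars stand above the siTET3 bars, with siCTL 2 the highest at 5.03% and 3.26%.

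Among themselves the subunit genes spanned a wide range of levels. Divided by the length of the annotated transcript, the mean level over the 6 libraries ran from 2714 units per kb (Rpl29) to 131266 (Rplp1) in the large subunit, with a median of 40954, and from 10083 (Rps20) to 96378 (Rps27a) in the small subunit, with a median of 50046. The Rps20 value rests on an annotated transcript of 3706 bases. Not divided by length, the highest mean values belonged to Rpl4, which helps line the peptide exit tunnel (128054 units), and Rpsa, a small-subunit protein also known as the laminin receptor precursor (92384 units). In GENCODE M21, 60 of the 82 tested members have at least 1 pseudogene named after them, 292 in all, with 24 for Rpl31. How the authors' counting treated reads that match several places is not given in the sources used here, so levels of these genes are uncertain to that extent. The median log2 change was -0.23 over the 60 and -0.32 over the 22 members with no such pseudogene, and -0.18 and -0.17 without siCTL replicate 2.

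With all 6 libraries, no single member passed the test. Of the 84 members, 82 had a mean of at least 10 units and were tested, and 0 were called lower or higher (limma, Benjamini-Hochberg over 11591 genes), against 0.0604% of all genes called lower and 0.293% called higher. At an unadjusted p under 0.05, limma listed 14 of the 82, all lower, against 6.95% of all genes lower. On recovered reads, edgeR called 0 (0.0604% of all genes lower and 0.285% higher) with 21 members at an unadjusted p under 0.05, all lower, against 7.98% of all genes lower. DESeq2 called 3 lower, Rpl28, Rpsa and Rps19, and 0 higher (1.88% of all genes lower and 1.85% higher), with adjusted p between 0.0181 and 0.0394. The authors' deposited table has 3 of 82 members past its adjusted p of 0.05, all lower in siTET3, against 1.39% of all genes lower and 1.55% higher.

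The log2 change was negative in 41 of 46 large-subunit genes and 29 of 31 small-subunit genes, against 50.7% of all genes tested. The median log2 change was -0.23 in the large subunit and -0.30 in the small subunit, against -0.005 over all genes. All 3 libraries labelled siTET3 lay below all 3 siCTL libraries for 20 large-subunit genes and 19 small-subunit genes, against 15.5% of all genes, and for no member did they all lie above (16.1% of all genes). Without siCTL replicate 2, the change was negative in all 46 and all 31 (48.2% of all genes), with medians of -0.17 and -0.21, and the groups did not overlap for 30 and 23 (20.6% of all genes). Genes of one subunit share their 6 libraries, so these counts describe the members and are not independent of each other.

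**Figure D2:**
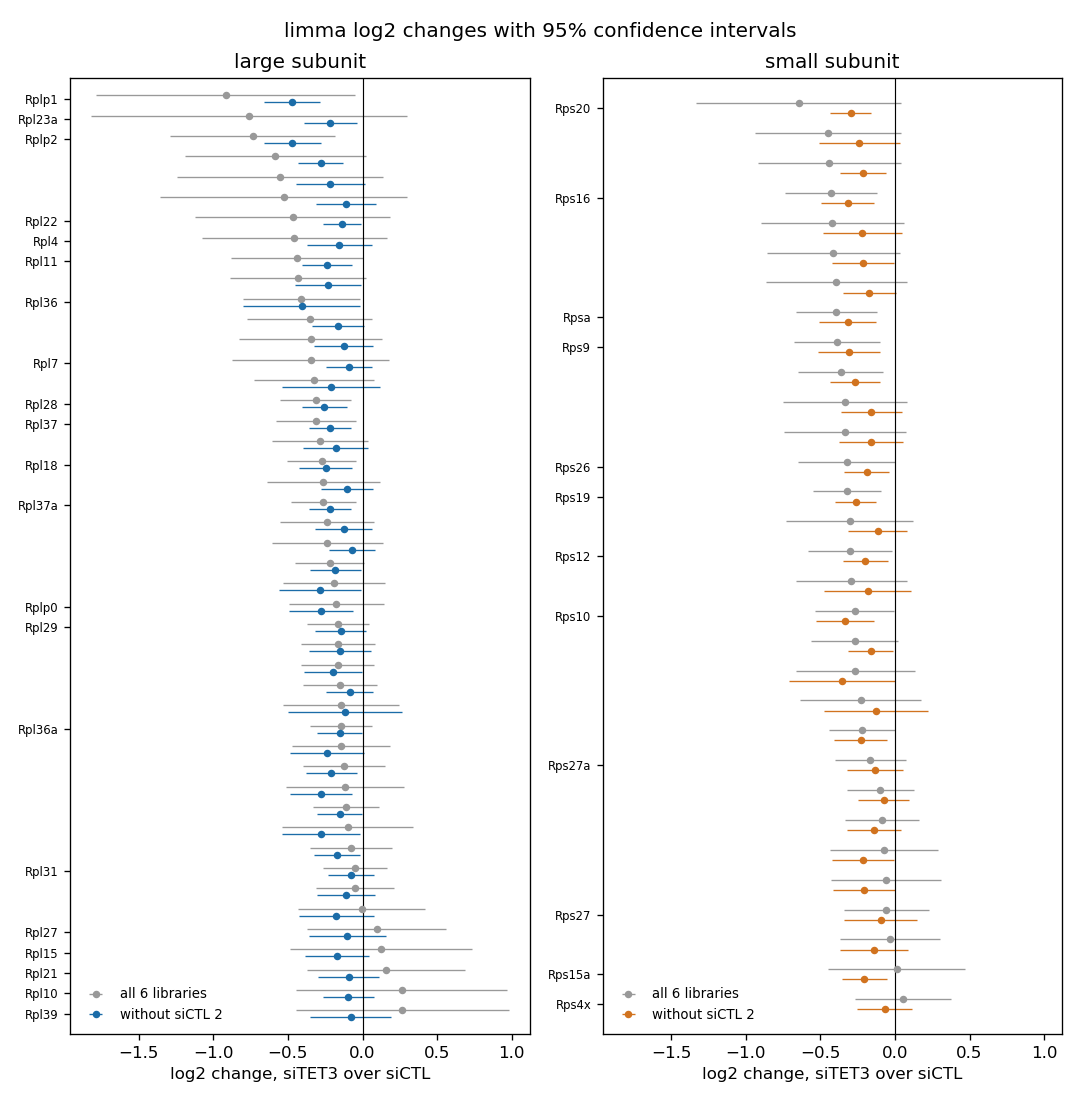
Log2 change between the libraries labelled siTET3 and siCTL for each of the 46 large-subunit (left) and 31 small-subunit (right) genes, as points with 95% confidence intervals from limma, with all 6 libraries (grey) and without siCTL 2 (coloured). Genes described in the text are named on the vertical axes. The coloured points all lie left of 0, and the grey points of Rplp1, Rpl23a, Rplp2 and Rps20 lie farthest left.

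Of the stalk proteins, Rplp1 and Rplp2 had the largest log2 changes of all subunit genes once siCTL replicate 2 was set aside, with Rpl36 next at -0.41. Rplp1 and Rplp2 form the flexible acidic stalk of the large subunit that recruits elongation factors, and Rplp0 is its base. Rplp1 had 58371, 147692 and 59508 units in siCTL replicates 1, 2 and 3 and 42705, 45346 and 39388 in the libraries labelled siTET3. Rplp2 had 32408, 52669 and 28451 units in siCTL and 23165, 21908 and 20765 in the libraries labelled siTET3. For both genes the groups did not overlap, and siCTL replicate 2 was far above the other siCTL libraries. With all libraries the log2 changes were -0.92 ± 0.36 and -0.73 ± 0.23 (SE), neither past the threshold (limma adjusted p = 0.374 and 0.330). Without siCTL replicate 2 they were -0.47 ± 0.08 and -0.47 ± 0.08 (SE), and both passed (limma adjusted p = 0.0312 and 0.0349), the only members called in that fit (1.06% of all genes lower and 1.7% higher). When the base-content trend was removed as well, their log2 changes were -0.36 and -0.39. Rplp1 passed there (limma adjusted p = 0.0278) and Rplp2 had an adjusted p of 0.0516. In that fit Rps20, a small-subunit gene described below, had a larger log2 change of -0.46. Rplp0 had 41776, 31867 and 37518 units in siCTL and 35205, 32981 and 29852 in the libraries labelled siTET3, so its groups overlapped through siCTL replicate 2, the lowest of its group (log2 change -0.18 with all libraries and -0.28 without that one, limma adjusted p = 0.470 and 0.141).

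The small-subunit genes with the lowest p-values were steadier between libraries. Because they were picked by p-value between the same libraries, their small spread and lack of overlap are no further result. Rpsa had 94777, 116170 and 104130 units in siCTL and 81676, 80895 and 76655 in the libraries labelled siTET3. Rps19, a protein needed to mature the small-subunit rRNA and mutated in Diamond-Blackfan anaemia in humans, had 23418, 26078 and 22695 units in siCTL and 18958, 20003 and 18705 in the libraries labelled siTET3. Both genes separated the groups with no overlap, and siCTL replicate 2 was the highest library without being far from the rest. Their log2 changes were -0.39 ± 0.11 and -0.32 ± 0.10 (SE), not past the threshold (limma adjusted p = 0.309 and 0.319), and -0.32 and -0.26 without siCTL replicate 2 (adjusted p = 0.0913 and 0.0675). Rps19 shrank to -0.054 and Rpsa to -0.21 once the trend with G + C content was taken out of all 6 libraries. When siCTL replicate 2 was also left out, Rps19 was at -0.10 and Rpsa at -0.22. Rps16, whose tail reaches the peptidyl site of the ribosome, had 24608, 33217 and 28367 units in siCTL and 20784, 21811 and 21021 in the libraries labelled siTET3. Its log2 change was -0.43 with all libraries and -0.32 without siCTL replicate 2, and it passed only when the base-content trend was removed in addition (limma adjusted p = 0.0375). Rps9, which lies at the mRNA entry of the small subunit, had a log2 change of -0.39 (-0.31 without siCTL replicate 2) and no overlap between the groups (limma adjusted p = 0.328). Rps12, Rps10 and Rps26 had log2 changes of -0.30, -0.27 and -0.32, with no overlap, and -0.20, -0.33 and -0.19 without siCTL replicate 2. With the base-content trend removed from all libraries, Rps9, Rps12, Rps10 and Rps26 were at -0.25, -0.29, -0.087 and -0.35. With siCTL replicate 2 left out as well, these were -0.25, -0.21, -0.24 and -0.22. In Rps10 siCTL replicate 2, with 26757 units, was the lowest library of its group, not the highest, and still lay above the 25617 units of the highest library labelled siTET3.

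Among the other large-subunit genes, those with the lowest p-values are described here. They were picked by p-value between the same libraries, so a lack of overlap in them is no further result. Rpl28 had 26773, 31233 and 28658 units in siCTL and 22336, 24075 and 23176 in the libraries labelled siTET3. Rpl37a, a small zinc-binding protein, had 20368, 22657 and 20972 units in siCTL and 17105, 18524 and 17694 in the libraries labelled siTET3. Neither gene overlapped between the groups, at folds of 0.804 and 0.834 (limma adjusted p = 0.330 and 0.339). Rpl37a was called lower without siCTL replicate 2 and the base-content trend (limma adjusted p = 0.0408), whereas Rpl28, at 60.4% G + C, came to a log2 change of -0.08 there (adjusted p = 0.528). Rpl18, Rpl37, Rpl36 and Rpl11 had log2 changes of -0.27, -0.31, -0.41 and -0.44, with all 3 libraries labelled siTET3 below all 3 siCTL libraries in each (adjusted p between 0.347 and 0.374). Their values became -0.25, -0.22, -0.41 and -0.24 without siCTL replicate 2. With the base-content trend removed from all libraries they were -0.038, -0.35, -0.11 and -0.35. With siCTL replicate 2 left out as well they were -0.11, -0.26, -0.22 and -0.20. Rpl11 joins the 5S ribonucleoprotein that can bind MDM2. The most abundant member, Rpl4, had 108342, 218865 and 126078 units in siCTL and 103338, 105189 and 106514 in the libraries labelled siTET3. There siCTL replicate 2 alone was at 1.997 times the geometric mean of the other 5 libraries, and the log2 change went from -0.46 to -0.15 without it.

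siCTL replicate 2 lay high for some members and low for others. It was above all 5 other libraries for 46 of the 82 members (39.2% of all genes) and below all 5 for 16 (39% of all genes). It was more than 2-fold from the mean of the others, on the log2(value + 1) scale, for 11 (14.5% of all genes). The SD of the members' log2 deviations was 0.60 in siCTL replicate 2 and 0.07 to 0.15 in the other 5 libraries. Over all genes tested it was 0.90 and 0.26 to 0.33, so a wider spread in siCTL replicate 2 was not particular to the members. Rpl23a, which sits at the tunnel exit and was named after its values were seen, had 134836 units in siCTL replicate 2 against 35532 to 45315 elsewhere. Rps20, a small-subunit head protein named in the same way, had 71054 against 27374 to 34499, and without that library its log2 change was -0.30 (limma adjusted p = 0.0511). With the base-content trend removed too, Rps20 was the fourth member called lower, beside Rplp1, Rps16 and Rpl37a (limma adjusted p = 0.0117, 1.35% of all genes lower and 2.19% higher). That fit takes the G + C content of Rps20 from the same long annotated transcript as its level per kb. The call therefore rests on that transcript too.

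**Figure D3:**
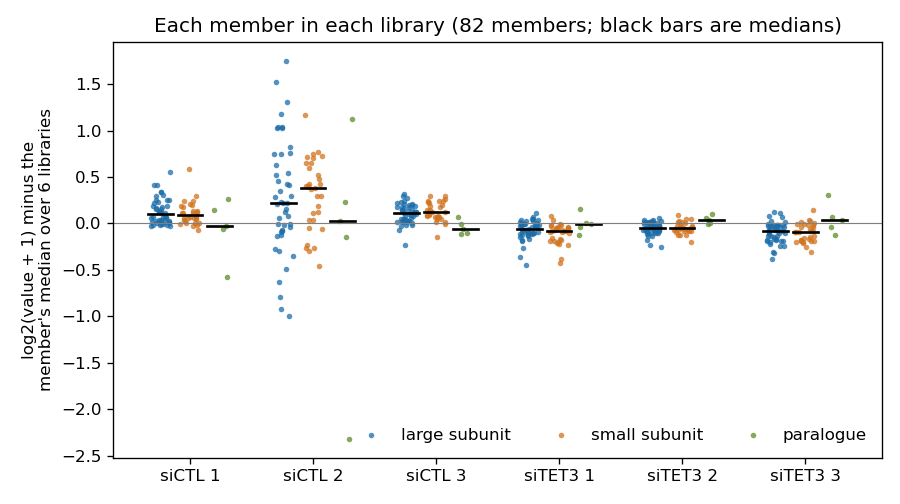
Each of the 82 tested members in each library, as log2(value + 1) minus that member's median over the 6 libraries, with black bars for the median of each class. The points of siCTL 2 spread from -2.32 to 1.75, and the subunit medians are above 0 in all siCTL libraries and below 0 in all siTET3 libraries.

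The 7 subunit genes whose log2 change was positive had a negative one without siCTL replicate 2. Rpl10, which joins the large subunit last and completes its tRNA sites, had 18422 units in siCTL replicate 2 against 34339 to 40210 in the other 5 libraries. Rpl39, a very small protein of the exit tunnel wall, had 8908 against 15988 to 20794. Their groups overlapped, and their log2 changes of 0.26 and 0.27 (limma adjusted p = 0.602 and 0.600) became -0.09 and -0.08 without siCTL replicate 2. Rpl15, Rpl21, Rpl27, Rps4x and Rps15a also turned from log2 changes between 0.01 and 0.16 to values between -0.21 and -0.07. None of these genes passed the test in either fit, and Rpl15 and Rps15a then lay below siCTL replicates 1 and 3 in all 3 libraries labelled siTET3.

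Base content was followed through the members in 2 measures. Across the 11529 genes, the deviation of siCTL replicate 2 from the other 5 libraries and G + C content had a Spearman coefficient of 0.50. Across the 82 members, which are not independent and share the libraries, it was 0.05. The members' log2 change without siCTL replicate 2, in contrast, was the more negative the higher the G + C content, with a coefficient of -0.35 (-0.31 in the large and -0.39 in the small subunit, against -0.49 over all genes), and with all libraries it was -0.15. Rps20 (41.3% G + C) and Rplp1 (57.3%) were both more than 2-fold high in siCTL replicate 2, and Rpl22l1 (40.6%) and Rpl10 (50.6%) were more than 2-fold low. The G + C content of Rps20 is that of its long annotated transcript. Members' G + C content ran from 40.6% to 60.8%, with a median of 51.7%, against a median of 50.6% over all genes. With the base-content trend removed from all 6 libraries the medians were -0.14 in the large subunit and -0.22 in the small subunit, and 35 of 46 and 26 of 31 log2 changes were negative (46.8% of all genes). Members with a snoRNA inside the gene, 30 of the 82, had a median log2 change of -0.31 and the other 52 had -0.22, and without siCTL replicate 2 these were -0.19 and -0.17.

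**Figure D4:**
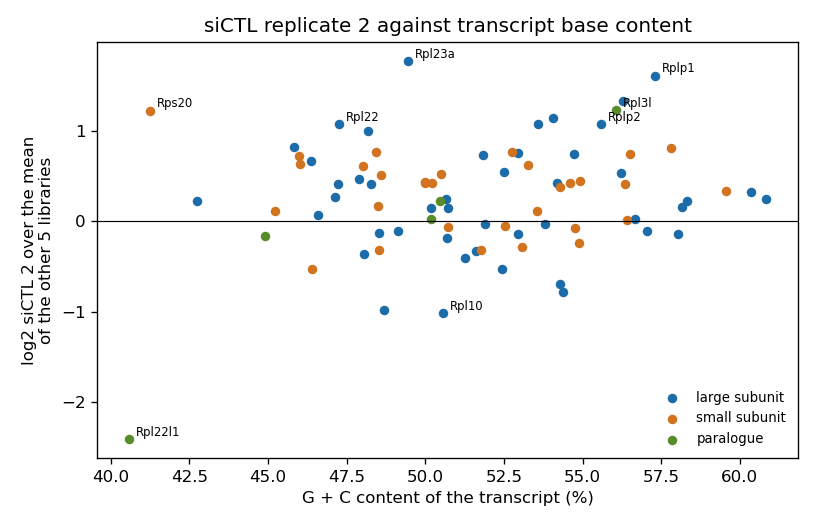
Log2 ratio of siCTL replicate 2 to the mean of the other 5 libraries for each of the 82 tested members, against the G + C content (%) of its annotated transcript, with some of the members over 2-fold away named. Points over 2-fold high lie between 41.3% and 57.3% G + C, without a common slope.

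No paralogue differed detectably between the groups. Rpl10l and Rpl39l were at 0 reads in all 6 libraries, which allows up to 3 reads, or 1.90 to 3.82 units, in each. Of the 5 tested, 0 were called (limma), and none had an unadjusted p under 0.05 in limma, edgeR or DESeq2. Their median log2 change was -0.03, and 0.06 when libraries were scaled by their totals, so its sign rests on the scaling. Rpl36al, the chromosome 12 copy of the X-linked Rpl36a, was the most abundant with a mean of 7726 units over the 6 libraries and the steadiest. It had 7558, 7854 and 8056 units in siCTL and 7730, 7670 and 7487 in the libraries labelled siTET3 (log2 change -0.04, 95% interval from -0.23 to 0.16). Rpl7l1, related to the yeast assembly factor Rlp7, had 6125, 7493 and 6381 units in siCTL and 6394, 6426 and 6739 in the libraries labelled siTET3. Rps27l, an inducible target of p53, had 4938, 4021 and 4132 units in siCTL and 4354, 4574 and 4572 in the libraries labelled siTET3. The groups overlapped for all 3 of these genes. Rpl22l1 had 2712, 452 and 2172 units in siCTL and 2073, 2351 and 2798 in the libraries labelled siTET3, so its siCTL mean of 1779 ± 1180 (SD, n = 3) rests on siCTL replicate 2, and its log2 change of 0.78 became -0.02 without it. Rpl3l stood at 26.6 to 88.7 units, with the highest value again in siCTL replicate 2.

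How far reads of a paralogue and its parent can be told apart by sequence is shown for Rps27l and Rpl36al. The first 90 coding bases of each pair (GENCODE M21, from the ATG) are given here, with bases that differ between the members of a pair in capitals.
Rps27 (chromosome 3): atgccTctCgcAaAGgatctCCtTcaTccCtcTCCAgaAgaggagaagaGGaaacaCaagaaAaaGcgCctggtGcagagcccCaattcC
Rps27l (chromosome 9): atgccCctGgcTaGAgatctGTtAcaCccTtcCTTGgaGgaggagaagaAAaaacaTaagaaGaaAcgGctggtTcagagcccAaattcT
Rpl36a (chromosome X): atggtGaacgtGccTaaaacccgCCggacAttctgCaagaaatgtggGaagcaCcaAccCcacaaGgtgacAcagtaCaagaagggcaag
Rpl36al (chromosome 12): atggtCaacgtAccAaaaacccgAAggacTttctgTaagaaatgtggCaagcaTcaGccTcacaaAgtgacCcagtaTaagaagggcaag
The Rps27 pair differs at 24 and the Rpl36a pair at 14 of these 90 bases. Over the whole coding sequence, 76.2% of aligned bases were identical in the Rps27 pair, with no identical stretch over 11 bases, and 87.7% in the Rpl36a pair, with none over 24. The other pairs lay between 66.9% (Rpl7l1 and Rpl7) and 85.0% (Rpl39l and Rpl39). The longest identical stretches of all pairs were 38 bases (Rpl39l and Rpl39) and 26 bases (Rpl22l1 and Rpl22).

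The ratio of a paralogue to its parent within a library does not depend on how libraries are scaled. Rpl7l1 was 12.4%, 8.65% and 12.1% of Rpl7 in siCTL and 13.2%, 13.6% and 14.0% in the libraries labelled siTET3, without overlap. Its ratio was 1.25-fold that of siCTL, and 0.15 higher on the log2 scale without siCTL replicate 2. The exact two-sided permutation test gave p = 0.1, the smallest p that 3 against 3 libraries allow, and 0.5 after Benjamini-Hochberg adjustment over the 5 pairs. Rpl36al was 41.2%, 45.6% and 48.1% of Rpl36a in siCTL and 49.97%, 47.1% and 48.3% in the libraries labelled siTET3. Rps27l was 22.9%, 19.99% and 18.7% of Rps27 in siCTL and 24.1%, 22.6% and 19.7% in the libraries labelled siTET3. These groups overlapped, with exact permutation p-values of 0.2 and 0.5 over the 20 assignments. In siCTL replicate 2 Rpl22l1 was 1.40% of Rpl22, against 13.4% to 18.3% in the other 5 libraries, as Rpl22 was at its highest there (32390 units against 14455 to 16405) and Rpl22l1 at its lowest. In mice Rpl22 is known to repress Rpl22l1, and whether this plays a part in these libraries was not tested. Per kb of transcript, the paralogues came to 0.0843% (Rpl3l), 10.96% (Rpl7l1), 11.4% (Rpl22l1), 42.9% (Rpl36al) and 14.8% (Rps27l) of their parents on average over the 6 libraries.

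**Figure D5:**
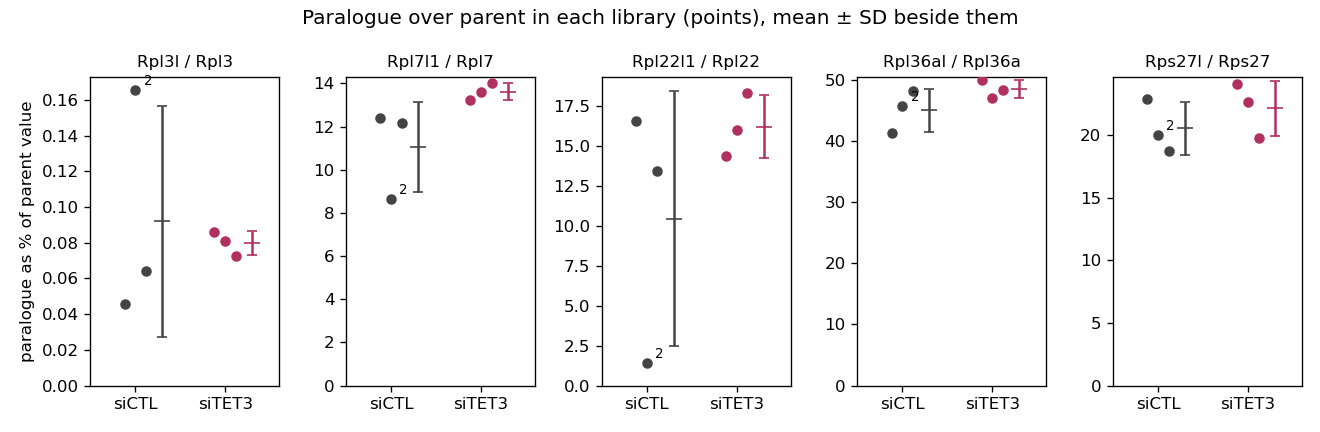
Value of each measured paralogue as a percent of its parent's value (vertical axes from 0, each with its own scale) in the 3 siCTL (grey, with replicate 2 marked) and 3 siTET3 (red) libraries, with mean ± SD beside the points. For Rpl7l1 all siTET3 points, from 13.2%, lie above all siCTL points, and for Rpl22l1 siCTL 2 lies alone at 1.40%.

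Other genes of ribosome production were read from fixed lists, without a set test, and none of the 136 tested genes on 6 such lists was called in either direction with all 6 libraries (limma, 0.0604% of all genes lower and 0.293% higher), with 12 at an unadjusted p under 0.05 (13.2% of all genes). The 3 subunit proteins whose symbols fall outside the name pattern had a median log2 change of -0.29 (-0.19 without siCTL replicate 2). Of these, Fau and Rack1, of the small subunit, overlapped between the groups. Of 11 elongation factors and other TOP mRNAs, 1 had a positive log2 change and 5 were lower with no overlap (15.5% of all genes), with a median of -0.22. Without siCTL replicate 2 the median was -0.14 and 2 were positive. Among them Eef2, the translocation factor, had 155327, 149559 and 156653 units in siCTL and 133744, 132864 and 124184 in the libraries labelled siTET3. Its siCTL replicate 2 was the lowest of the group, and its log2 change was -0.24 with all libraries (limma adjusted p = 0.374) and -0.26 without siCTL replicate 2. Removing the base-content trend brought it to -0.041.

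The lists of genes that build ribosomes or start translation were described in the same way. Of 60 ribosome biogenesis genes, 16 had a positive log2 change with all libraries and 31 without siCTL replicate 2, with medians of -0.18 and 0.01. The median was -0.16 with the base-content trend removed from all libraries. Dkc1, which modifies rRNA, had a log2 change of 0.21 (-0.0035 with the base-content trend removed), with values of 2875 to 3062 units in siCTL and 3333 to 3497 in the libraries labelled siTET3. The medians were -0.06 over 36 initiation factors, -0.03 over 11 genes of RNA polymerase I and 0.01 over 15 regulators in the mTORC1 and MYC pathways, and they were -0.003, 0.03 and 0.04 without siCTL replicate 2. Removing the base-content trend from all libraries gave -0.11, 0.073 and 0.084. Of the initiation factors, Eif4g2 and Eif5 had log2 changes of 0.36 and 0.49 and Eif6, which keeps free large subunits apart, -0.32. Taf1d of RNA polymerase I had 0.49. These 4 values became 0.25, 0.30, -0.24 and 0.32 without siCTL replicate 2. Rps6kb1, the S6 kinase that acts below mTORC1, had a log2 change of 0.25, from 2716 to 2801 units in siCTL and from 3167 to 3329 in siTET3-labelled libraries (limma adjusted p = 0.329), but -0.24 with the base-content trend removed. Without siCTL replicate 2, 1 of these genes was called lower, Eif4ebp1, the translation repressor 4E-BP1, named after its values were seen (log2 change -0.29, limma adjusted p = 0.0360, 1.06% of all genes lower), and with all libraries its groups overlapped.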

How the data were processed

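RNA of 6 libraries (3 siCTL, 3 siTET3 by title) was analysed. The deposited table holds a signal per gene and library, gene counts scaled by the authors with a single factor for each library: 100% of the values were whole multiples of 1 read within 0.001 reads. The deposited table also gives the authors' log2 fold changes (siCTL over siTET3, turned here), with standard errors, a test score and p-values (DESeq2, going by the file's name). The build was GRCm38 (mm10), per the submitters' processing notes, while aligner and counter were not given in the sources used here. Normalised reads are called units, and 1 read was worth 0.634 to 1.27 units.

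Values were tested with limma 3.58.1 (R 4.3.3, variance trend) on log2(value + 1) without covariates, over the 11591 genes with a mean of at least 10 units, with Benjamini-Hochberg adjustment and a threshold of 0.05. This scale understates the change of low genes. Errors are SE or 95% intervals. Paralogue to parent ratios and Tet3 were also tested by exact permutation. edgeR 4.0.16 and DESeq2 1.42.0 on the recovered reads were alternatives, and edgeR called 33 genes higher and 7 lower. Others were pseudocounts of 0.5 and 5, no filter, a mean of at least 50 units, TMM and library-size scaling, removal of the trend with transcript G + C content, a replicate block and leaving out each library. The scripts were tested on simulated data. Intervals and floors of 3 reads cover counting error only.

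Genes were matched by identifier to GENCODE M21 (GRCm38), with 1 coding transcript each, and windows come from the first listed start in RefSeq's promoter table (10 members list more than 1). Coding sequences were aligned with Biopython 1.88. For 20 members no promoter window was used. The name rule left out 23 rows with similar names (10 kinases, 11 pseudogene names and 2 others). Genes named, apart from a few not reported here, are called members, the 8 of each subunit with the lowest p, the most abundant of each subunit, Rplp0, Rplp1 and Rplp2, all paralogues, members whose sign is opposite to their subunit's median, up to 3 per list and Tet3. The members, lists and tests were chosen with earlier results of these data known.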

Additional observations from a re-analysis of the deposited data

How the results depend on the processing

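The medians of the large and small subunits were negative under every alternative tried. The large-subunit median was -0.14 with the base-content trend removed, -0.14 with library-size scaling (-0.16 with the members left out of the totals), -0.17 without siCTL replicate 2 and -0.16 without it and the trend. The paralogue median was 0.057 and 0.040 under these library-size scalings and 0.012 over genes with a mean of at least 50 units. Leaving out each library in turn gave medians from -0.27 to -0.17 (large), -0.36 to -0.21 (small) and -0.06 to -0.01 (paralogues). Members called lower numbered 0 to 2 when 1 library was left out (2 without siCTL replicate 2, against 1.06% of all genes lower). They numbered 4 without siCTL replicate 2 and the trend (1.35% of all genes lower) and 3 with DESeq2 (1.88% of all genes lower), and the cause was not tested. Of the 136 tested genes on the pathway lists, 0 to 1 was called lower on leaving out a library. That was Eif4ebp1 without siCTL replicate 2 (1.06% of all genes lower), and likewise 1 with the trend removed in addition (1.35%). DESeq2 called 1 lower (Eef2) and 1 higher (Rps6kb1), against 1.88% of all genes lower and 1.85% higher.

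The log2 change of Tet3 was 0.23 with the trend removed, 0.029 and 0.011 under the library-size scalings, 0.071 without siCTL replicate 2 and the trend, and -0.10 to -0.01 on leaving out a library. Log2 differences of the ratios to the parent ranged on leaving out a library from -0.37 to 0.54 (Rpl3l), 0.11 to 1.90 (Rpl22l1), 0.05 to 0.16 (Rpl36al), 0.15 to 0.41 (Rpl7l1) and 0.04 to 0.19 (Rps27l).

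Some single genes turned sign, none of them past the threshold. On leaving out a library, log2 changes ranged from -0.094 to 0.47 (Rpl10), -0.17 to 0.29 (Rpl15), -0.093 to 0.34 (Rpl21), -0.023 to 1.27 (Rpl22l1), -0.10 to 0.25 (Rpl27), -0.079 to 0.53 (Rpl39), -0.46 to 0.39 (Rpl3l), -0.085 to 0.060 (Rpl7l1), -0.21 to 0.14 (Rps15a), -0.0058 to 0.14 (Rps27l) and -0.068 to 0.14 (Rps4x). Without siCTL replicate 2 and the trend, Rpl10 was at -0.095, Rpl15 -0.11, Rpl21 -0.034, Rpl22l1 -0.19, Rpl27 -0.072, Rpl39 -0.11, Rps4x -0.10, Rps15a -0.27, Rps27l -0.10, Rpl3l 0.48 and Rpl7l1 0.058. With the trend removed from all libraries, Rpl3l was at 0.073, Rps15a -0.083 and Rps27l -0.10. Under the library-size scalings Rpl36al was at 0.049 and 0.031 and Rpl7l1 at 0.057 and 0.040. Rps15a was at -0.020 with DESeq2 and -0.024 with edgeR.

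Same-numbered deviations from the group means correlated at 0.032, -0.062 and -0.097. Deviations from a mean of 3 libraries are not independent, so these values cannot show whether replicate numbers pair the libraries. A replicate block left the medians at -0.23, -0.30 and -0.03 and called 0 members, and over all genes 1 higher and 0 lower. With block and trend removal the large-subunit median was -0.14, Tet3 0.23, Rpl3l 0.073, Rps15a -0.083 and Rps27l -0.10. Depth limited Rpl3l, Rpl10l and Rpl39l, whereas every subunit gene had at least 1440 units in each library.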

Other observations

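Of the 11 rows with pseudogene names that the name rule left out, Rpl36-ps4 was at 0 in every library. Rps12-ps3 had 19.0 to 42.8 units and Rpl23a-ps3 201 to 472 units, the last highest in siTET3 replicate 3. Rpl9-ps6 had 40.5, 2989 and 102 units in siCTL replicates 1, 2 and 3 and 107, 171 and 192 in the libraries labelled siTET3, so siCTL replicate 2 was far above the rest. Rpl9 itself had 33075 units in that library, within the 32663 to 39445 units of the others. Rpl27-ps3 and Rpl10-ps3 were also highest in siCTL replicate 2, at 215 and 147 units against at most 64.9 and 40.9 elsewhere, and Rpl27 and Rpl10 were at their lowest there. These rows were picked after their values were seen, and how the counting divided reads between genes and pseudogenes was not tested.

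Among the ribosome biogenesis genes, the abundant nucleolar proteins Ncl and Npm1 were highest in siCTL replicate 2. Ncl had 62059, 296119.6 and 83804 units in siCTL and 80453, 74682 and 80397 in the libraries labelled siTET3. Npm1 had 74903, 151005 and 85461 units in siCTL and 91284, 85099.7 and 85068 in the libraries labelled siTET3. For both genes the groups overlapped. Their log2 changes were -0.56 and -0.18 with all libraries (limma adjusted p = 0.556 and 0.677) and 0.12 and 0.12 without siCTL replicate 2.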
